A study of Homo sapiens with 2 samples.

Results

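The AP-1, EGR1 and ZFP36 immediate early genes were examined in HCT15 cells, a human line established from a colorectal adenocarcinoma. The set held 10 of 19775 genes, taken by exact gene symbol: FOS, FOSB, FOSL1, FOSL2, JUN, JUNB, JUND, EGR1, ZFP36 and IER3. These were read by 22 of 54613 non-control probe sets on an Affymetrix array. One culture was given Cas9 and an ARID3B guide RNA and has the genotype label ARID3B knockout, and the other is labelled control. For both, the growth medium was RPMI containing fetal bovine serum. Each group had 1 array of total RNA, so differences had no replicate check and were not tested, and all statements describe these 2 arrays. The labels do not say whether the edited cells were a clone or a pool, what the control cells received, or how long before harvest the serum or medium was changed.

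Immediate early genes are transcribed within minutes of a growth factor, stress or serum signal, before any new protein is made. The signal reaches many of them through ERK and other MAP kinases, which activate ELK factors bound with SRF at CArG boxes (the core of the serum response element), and through CREB-type factors at cAMP response elements (CRE). Fos proteins (FOS, FOSB, FOSL1, FOSL2) bind DNA as dimers with Jun proteins (JUN, JUNB, JUND), and these dimers are the transcription factor AP-1. EGR1 is a zinc finger transcription factor, ZFP36 (tristetraprolin) binds AU-rich elements in mRNAs and recruits the deadenylation machinery, and IER3 is a stress-inducible regulator of cell survival. The set is named after immediate early genes, and how fast each member responds to a signal was not measured here.

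Values were log2 expression values made with RMA, which corrects for background, gives both arrays 1 distribution by quantile normalisation and combines the probes of each probe set. A difference is the knockout-labelled minus the control array on the log2 scale, so that 1 is 2-fold. The brightest probe set, by its mean over the arrays, stood for a gene. Genes were compared when the higher of their values reached a floor of 4.59, which is the median over the non-control probe sets. All 10 genes and 12841 of 19775 genes overall met this condition. The median difference of the compared genes was 0.04. Their spread is given as the scaled median absolute deviation (scaled MAD) among genes in the same of 10 bins of mean expression, which ran from 0.255 to 0.437. ARID3B itself was higher on the array labelled knockout (6.09 against 5.12), so that every direction rests on the labels alone. The poly-A spike-ins, bacterial transcripts usually added before labelling, were lower in all 24 probe sets on that array (mean difference -1.19). Scaling on them raises every difference by that amount and the median of all compared genes to 1.22. Each difference is therefore relative to the bulk of genes, and the part of input RNA in them was not tested.

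Of the 10 genes, 8 were above 0 and 2 below 0, and 52.9% of all compared genes were above 0. At least 2-fold higher were 4 (FOS, FOSL1, EGR1 and ZFP36), and none was 2-fold lower. The background was 1.05% of all compared genes at least 2-fold higher and 3.79% lower. Past 1.5-fold by their fitted difference, 6 were higher and 2 lower, against 5.83% and 10.5% of compared genes. One of these 6, FOSB, had a control value below the floor, and set against the floor it was at least 1.16-fold higher, which does not reach 1.5-fold. None was 3-fold higher, as were 0.195% of compared genes. The median difference of the 10 genes was 0.67. The members were chosen with earlier results of these data known, so these shares describe the set and test nothing. The Fos family, JUNB, EGR1 and ZFP36 lay on one side and JUN and JUND on the other, with IER3 near 0. Each array reads a whole culture, so fewer cells with a transcript and less of it per cell cannot be told apart.

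**Figure D1:**
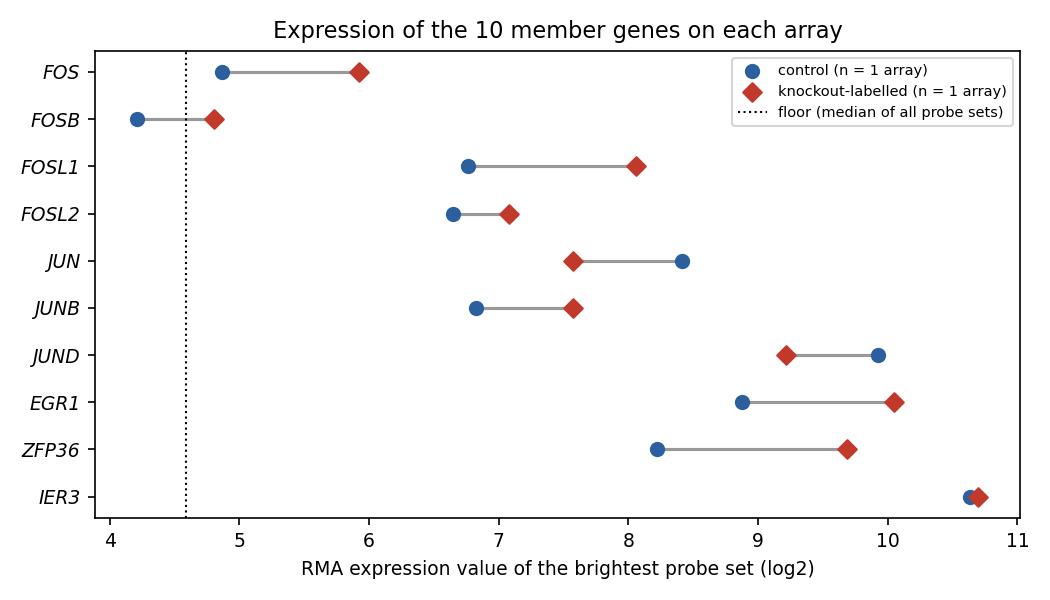
Log2 expression values (horizontal axis) of the brightest probe set of each gene on the control array (blue circles) and the knockout-labelled array (red diamonds), 1 array each, with the floor as a dotted line. JUN and JUND are the 2 genes whose red symbol lies to the left of the blue one. Values of different genes come from different probes and are not comparable with each other.

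Promoter sequences of 8 of the 10 genes were in the RefSeq table used (GRCh38.p14). Those of EGR1, FOS and JUNB, from the genes higher on the knockout-labelled array, and of JUN and JUND, the lower ones, are shown to set these groups side by side. Each runs 5′ to 3′ on the gene's own strand over the 250 bases before its annotated start. Capitals mark matches to a CArG box, the EGR site GCGNGGGCG, the CRE TGACGTCA, its core TGACG, and the TATA box TATAAA, on either strand.
EGR1, chr5:138465229-138465478, plus strand: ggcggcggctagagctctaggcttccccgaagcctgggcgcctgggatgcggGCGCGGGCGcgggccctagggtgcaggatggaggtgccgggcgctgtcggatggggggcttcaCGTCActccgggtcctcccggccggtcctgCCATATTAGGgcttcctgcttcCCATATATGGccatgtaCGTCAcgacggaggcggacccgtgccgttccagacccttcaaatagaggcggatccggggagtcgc
FOS, chr14:75278578-75278827, plus strand: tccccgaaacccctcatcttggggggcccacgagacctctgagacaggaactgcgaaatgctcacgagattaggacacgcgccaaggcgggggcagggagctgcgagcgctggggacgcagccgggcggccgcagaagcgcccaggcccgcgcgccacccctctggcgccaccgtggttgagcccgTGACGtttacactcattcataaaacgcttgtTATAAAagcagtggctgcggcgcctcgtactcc
JUNB, chr19:12791236-12791485, plus strand: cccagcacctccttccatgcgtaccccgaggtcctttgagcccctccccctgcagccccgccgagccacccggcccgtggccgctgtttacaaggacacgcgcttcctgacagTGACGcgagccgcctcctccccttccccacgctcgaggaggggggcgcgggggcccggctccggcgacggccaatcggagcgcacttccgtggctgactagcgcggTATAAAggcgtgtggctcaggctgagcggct
JUN, chr1:58784048-58784297, minus strand: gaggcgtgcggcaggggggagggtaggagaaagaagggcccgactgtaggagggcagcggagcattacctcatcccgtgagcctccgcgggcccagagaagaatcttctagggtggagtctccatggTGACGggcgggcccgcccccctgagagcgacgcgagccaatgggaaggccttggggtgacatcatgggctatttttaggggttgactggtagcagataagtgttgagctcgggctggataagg
JUND, chr19:18281623-18281872, minus strand: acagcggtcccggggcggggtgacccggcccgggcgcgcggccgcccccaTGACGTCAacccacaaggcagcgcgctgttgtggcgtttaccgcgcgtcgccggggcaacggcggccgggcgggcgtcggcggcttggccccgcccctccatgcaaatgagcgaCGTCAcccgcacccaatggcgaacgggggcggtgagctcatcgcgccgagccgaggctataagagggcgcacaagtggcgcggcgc

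EGR1 was higher on the knockout-labelled array in all 3 of its probe sets. The brightest, 201694_s_at, stood at 10.05 (knockout-labelled) and 8.87 (control). The difference was 1.18, or 2.26-fold, against a scaled MAD of 0.366 among genes of like expression. Only 0.545% of the genes in that bin were at least 2-fold higher. The other probe sets of EGR1 stood at 8.09 against 6.83 (201693_s_at, difference 1.26) and at 8.52 against 7.66 (227404_s_at, difference 0.86). All 3 have an identifier suffix for probe sets that may match several transcripts, so no EGR1 value was left without such probe sets.

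ZFP36 had the largest difference of the 10 genes. Its single probe set, 201531_at, stood at 9.69 (knockout-labelled) and 8.22 (control). That is a difference of 1.46, or 2.76-fold, with a scaled MAD of 0.388 in its bin. A higher difference was found in 0.265% of compared genes. The ZFP36 probe set was bright on both arrays, above 95.7% and 88.1% of all non-control probe sets.

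Among the Fos family, which supplies the partners of Jun proteins, all 4 genes were above 0. FOSL1 (FRA1), which lacks the strong activation domain of FOS and is often abundant in carcinoma cells, stood at 8.06 (knockout-labelled) and 6.76 (control). Its difference of 1.30 was 2.46-fold, against a scaled MAD of 0.411. FOS, the founding member, stood at 5.92 and 4.86. Its difference of 1.06, or 2.08-fold, lay just past the 2-fold line, and its control value lay close to the floor. Scaled on ribosomal protein genes FOS differed by 0.96, short of 2-fold. With 64 linear units added to both arrays, which damps dim signals, FOS differed by 0.42 and FOSL1 by 0.94.

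FOSB and FOSL2 differed by less than FOS and FOSL1. FOSB stood at 4.80 (knockout-labelled) and 4.21 (control), the second of which was under the floor. Set against the floor it was at least 1.16-fold higher. The fitted difference of 0.59 is not a measured fold. FOSB is known for its sharp, short induction, and here its probe set was dim on both arrays.

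FOSL2 (FRA2) was read by 5 probe sets, all above 0 but of unequal size. The brightest, 225262_at, stood at 7.08 and 6.65, a difference of 0.43 that was no larger than the scaled MAD of 0.437. The next, 228188_at, stood at 6.99 and 6.45 (0.54). The largest difference, 1.03, was in 218880_at, at 6.13 and 5.10. The other 2 differed by 0.83 (205409_at, whose control value was under the floor) and by 0.02 (218881_s_at, close to the floor on both arrays). The probe sets thus did not give 1 size for FOSL2, and their mean was 0.57.

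The Jun family was split. JUN, the main transactivating partner of FOS, was lower on the knockout-labelled array in all 4 of its probe sets. The brightest, 201464_x_at, stood at 7.57 (knockout-labelled) and 8.42 (control). This difference of -0.84 (1.79-fold lower) lay past the scaled MAD of 0.388, and 5.35% of compared genes had a lower one. The dimmer probe sets differed by more. They stood at 6.04 against 7.10 (201465_s_at, -1.05), 4.53 against 5.48 (213281_at, -0.95) and 4.19 against 5.77 (201466_s_at, -1.58). The knockout-labelled values of the last 2 were under the floor, so their differences are not measured folds. Both the mean over the JUN probe sets (-1.11) and 213281_at, the single probe set without a suffix for several transcripts, lay further from 0 than the brightest one.

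JUND, usually the most constantly expressed Jun gene, also lay below 0. Its brightest probe set, 203752_s_at, stood at 9.21 (knockout-labelled) and 9.92 (control). This was a difference of -0.71 (1.64-fold lower) against a scaled MAD of 0.366. The dimmer JUND probe sets differed by less, at -0.40 (214326_x_at) and -0.17 (203751_x_at), and 229117_s_at was under the floor and had the same value, 4.11, on both arrays. As the mean of its probe sets JUND differed by -0.32. Equal values to all deposited digits on both arrays were found in 3678 non-control probe sets (6.73%), so an exact 0 is common in these data.

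JUNB, a weaker activator that can oppose JUN at some genes, differed in the opposite direction. Its 1 probe set, 201473_at, stood at 7.57 (knockout-labelled) and 6.82 (control), a difference of 0.75 (1.69-fold) against a scaled MAD of 0.437. JUNB and JUN thus differed from each other by 1.59 in their differences, and JUNB and JUND by 1.46. FOSL1 and JUN stood 2.14 apart, and FOS and JUN 1.90 apart. These gaps are the same under any scaling that moves all genes by 1 amount. The signs are not: scaled on the poly-A spike-ins, JUN differed by 0.34 and JUND by 0.48, both below the median of 1.22 of all compared genes under that scaling.

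IER3 did not share the higher values of EGR1 and ZFP36. Its probe set 201631_s_at stood at 10.70 (knockout-labelled) and 10.64 (control). The difference of 0.06 was well within the scaled MAD of 0.255, and it became -0.03 when the arrays were scaled on ribosomal protein genes. The IER3 probe set was among the brightest 2.01% of probe sets on the control array. EGR1 and IER3 stood 1.11 apart in their differences.

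**Figure D2:**
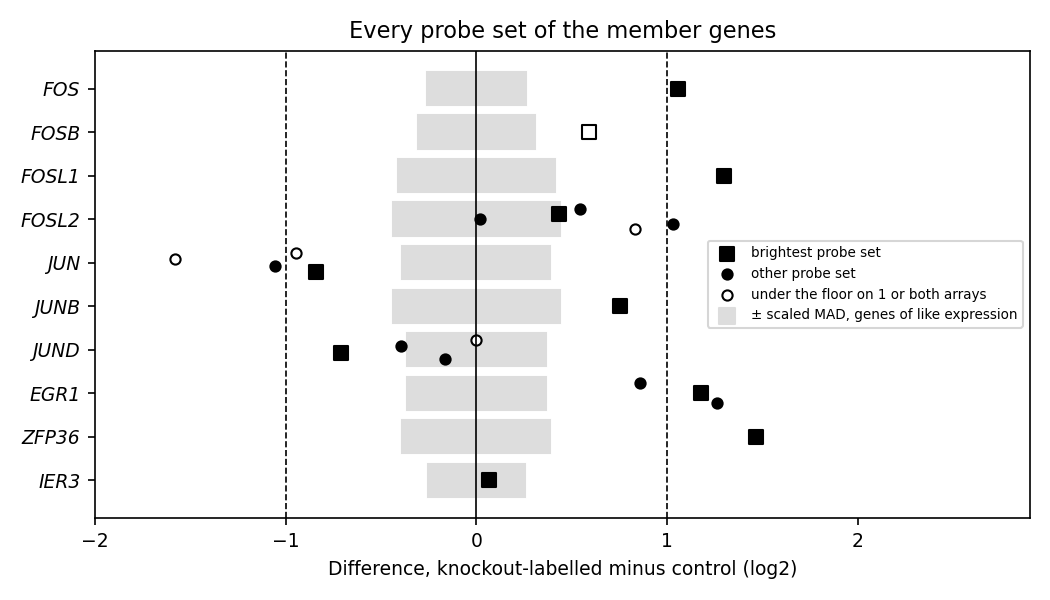
Difference between the arrays (horizontal axis, log2) for each of the 22 probe sets, with squares for the brightest probe set of a gene and circles for the others. Open symbols were under the floor on 1 or both arrays, grey bars show plus and minus the scaled MAD of genes of like expression, and dashed lines mark 2-fold. The 4 JUN probe sets all lie left of 0 and the 3 EGR1 probe sets all right of it.

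Over the single probe sets, 14 were above 0, 7 below 0 and 1 equal. The share above 0 was computed over compared genes (52.9%) and not over all probe sets. Of the 4 genes with several probe sets, EGR1, FOSL2 and JUN each had all of them on 1 side. The other 6 genes had 1 probe set each, so their values have no second reading. Of the 17 probe sets above the floor on both arrays, 6 were at least 2-fold higher and 1, a JUN probe set, at least 2-fold lower. The background was 1.19% higher and 2.83% lower among 21952 single-symbol probe sets above the floor on both arrays.

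**Figure D3:**
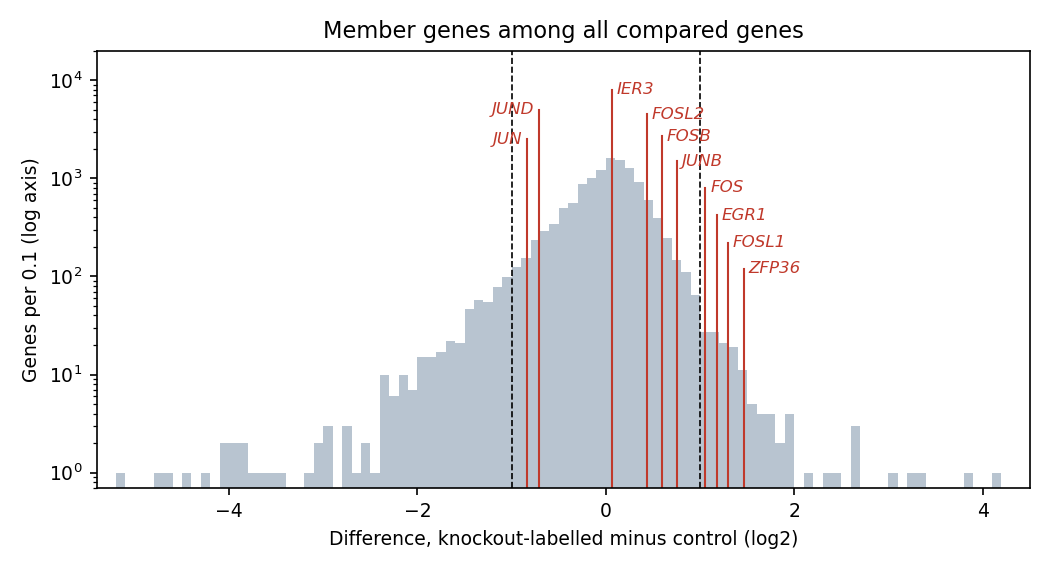
Number of compared genes (vertical log axis) by difference between the arrays (horizontal axis, log2), with red lines at the values of the 10 member genes and dashed lines at 2-fold. FOS, EGR1, FOSL1 and ZFP36 lie to the right of the 2-fold line, where 135 of 12841 genes lie, and JUN and JUND lie inside the left one.

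The promoter windows, of 250 bases before and 50 after the start, were searched on both strands. EGR1 was the 1 gene of 8 with a match to the CArG box, and it had 2: CCATATTAGG began 105 bases and CCATATATGG 83 bases before the start. A CArG box was found in 1.29% of all 35116 promoters of this length and in 1.18% of those of compared genes. EGR1 also had the 1 match to the EGR site (9.43% of all promoters and 14.6% of those of compared genes). The CRE core TGACG was the most shared motif, in 7 of 8 genes against 24.6% of all promoters and 31.2% of the promoters of compared genes. It was present in JUN and JUND as well as in FOS, FOSB, FOSL2, JUNB and EGR1, and was not matched in ZFP36.

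In FOS the core began 64 bases before the start, and in FOSB 60 and in FOSL2 66 bases before it, on the gene's strand. JUND had the single full CRE, 200 bases before the start, which contains a core on each strand, and a further core. Full CREs were found in 1.85% of all promoters and 2.73% of those of compared genes. The TATA box was matched in FOS, FOSB and JUNB, between 33 and 30 bases before the start, against 11.5% of all promoters and 6.37% of those of compared genes. The AP-1 site TGANTCA was matched once, in FOSL2, just after the start (7.71% of all promoters and 5.38% of those of compared genes). GC boxes (GGGCGG) were found in 6 of 8 genes, against 45.0% of all promoters and 65.2% of those of compared genes, a share near this background. Matches are descriptions of letters in these windows, and distal elements outside them were not searched. Only exact matches to the stated patterns were counted. Longer or altered forms were not searched, such as TGACATCA, which is in the JUN sequence shown.

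**Figure D4:**
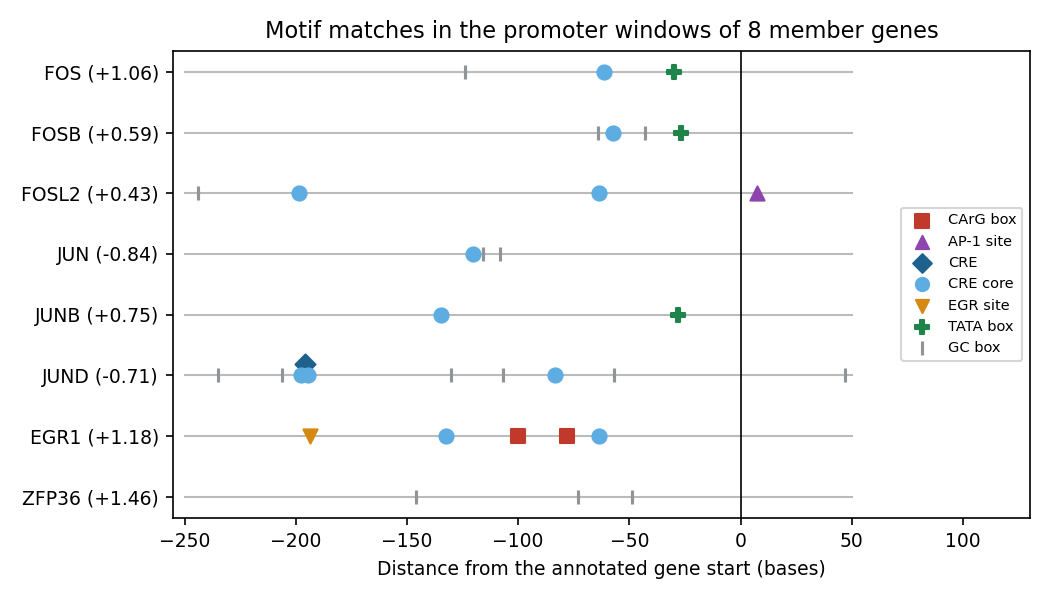
Positions of motif matches (symbols) by distance from the annotated gene start (horizontal axis, bases) in 8 promoter windows, with each gene's difference between the arrays in brackets. EGR1 is the gene with CArG boxes, and cores of the CRE occur in genes of either direction.

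Other immediate early genes did not form 1 direction. Of 42 listed, 40 were measured and 37 compared, with a median of 0.19. Above 0 were 24 (64.9%, against 52.9% of all compared genes). At least 2-fold higher was 1 and lower were 4, against 1.05% and 3.79% of all compared genes. Past 1.5-fold, 9 were higher and 7 lower, against 5.83% and 10.5%. GEM, a small GTP-binding protein that restrains calcium channels, stood at 7.81 (knockout-labelled) and 6.09 (control) (1.72, 3.29-fold). The orphan nuclear receptor NR4A3 stood at 4.44, under the floor, and 7.16, and was at least 5.96-fold lower. EGR3, a relative of EGR1, stood at 4.97 and 6.14 (-1.16) in its 1 probe set, opposite to EGR1. The knockout-labelled value of EGR3 lay close to the floor. Another relative, EGR4, named after its value was seen, differed by 0.04 and was dim on both arrays. EGR2 was listed but had no single-symbol probe set. The kinase SGK1 stood at 5.32 and 6.59 (-1.27). The fourth gene past 2-fold lower, named after its value was seen, was the NF-kB cofactor NFKBIZ (-1.08).

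Further bZIP factors, several of which can pair with Fos or Jun proteins, had a median of 0.08 over 29 compared of 37 listed. Of these 1 was at least 2-fold higher and 2 lower (3.45% and 6.90%, against 1.05% and 3.79% of all compared genes). Counts this small cannot be told apart from those shares. DDIT3 (CHOP) stood at 10.38 (knockout-labelled) and 6.99 (control) (3.39). CEBPA, a differentiation factor, stood at 5.41 and 6.80 (-1.38). ATF5 differed by -1.10 in its brightest probe set, while 2 of its 4 probe sets lay at or above 0. ATF3, itself an immediate early gene and a partner of JUN, stood at 8.48 and 7.54 (0.95), with all 3 probe sets above 0.

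Transcripts of the signalling route to these genes differed little. The list of kinases, SRF and ELK factors had 27 of 34 genes compared, none of them at least 2-fold different, and a median of 0.16. Its largest values were in MAP2K5, a kinase of the ERK5 route (0.72), MAP2K1, which encodes MEK1 (0.51), and the ternary complex factors ELK1 (0.48) and ELK3 (0.45). These are transcript levels, and kinase activity was not measured. Of 12 genes for turnover and corepression of these factors, all were compared and none was 2-fold different. Over all compared genes 1.05% were at least 2-fold higher and 3.79% lower, beside 0 in this list and in the kinase list. FBXW7, the ubiquitin ligase subunit that targets JUN, stood at 8.66 and 7.83 (0.83), and the mean over its 4 probe sets was 0.28. NAB2, a corepressor induced by EGR1, stood at 7.82 and 7.20 (0.61). DET1 and COP1, which act in the ligase complex that targets JUN, differed by -0.53 and -0.24, with 1 of the 2 DET1 probe sets above 0.

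Known AP-1 targets gave 13 compared genes of 27 listed, with a median of 0.14, 1 at least 2-fold higher and none lower. Over all compared genes 1.05% were higher and 3.79% lower, and counts this small cannot be told apart from those shares. S100A10, a partner of annexin A2, stood at 12.27 (knockout-labelled) and 11.16 (control) (1.11). ANXA1 stood at 10.27 and 11.24 (-0.97), but 1 of its 2 probe sets was in the opposite direction. The chromatin protein HMGA1 (0.59) and the urokinase gene PLAU (0.54) were next. All listed matrix metalloproteinases except MMP14 were under the floor on both arrays. EGR1 targets gave 14 compared genes of 18 listed and a median of 0.21. At least 2-fold higher was 1 and lower was 1, against the same 1.05% and 3.79%. VEGFA, the angiogenic growth factor, stood at 9.62 and 8.23 (1.39) and the adhesion molecule ICAM1 at 9.18 and 8.21 (0.98). THBS1, an inhibitor of angiogenesis, stood at 5.79 and 6.94 (-1.16), where 5 of its 7 probe sets were below 0.

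The machinery that ZFP36 works with differed little in its transcripts. All 28 listed genes of deadenylation, decapping and AU-rich element binding were compared, none was 2-fold different, and the median was 0.07. The shares over all compared genes were 1.05% at least 2-fold higher and 3.79% lower. ZFP36L1, the close relative of ZFP36, lay in the opposite direction to it in its brightest probe set, at 8.50 (knockout-labelled) and 9.44 (control) (-0.95). Its 4 probe sets were divided 2 against 2, and their mean was -0.30. PAN2 (0.66), DCP1A (0.63) and CNOT6L (0.57) had the next largest differences.

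Among mRNAs known as ZFP36 targets, 23 of 30 listed were compared, 6 at least 2-fold lower and 2 higher, with a median of -0.11. That is 26.1% lower and 8.7% higher, against 3.79% and 1.05% of all compared genes. The list was chosen with earlier results of these data known, so these shares test nothing. The lower ones were led by chemokines that attract leukocytes. CXCL8 stood at 5.87 (knockout-labelled) and 9.73 (control) (-3.86), CXCL1 at 6.32 and 10.28 (-3.96), and CXCL2 at 6.02 and 9.76 (-3.74, with a mean of -1.69 over its 3 probe sets). CCL20 stood at 2.56, under the floor, and 7.03, and was at least 5.43-fold lower. The 2 higher genes, named after their values were seen, were VEGFA (1.39) and the kinase PIM3 (1.29). The list therefore held genes far below 0 beside genes above 0, and several of its chemokines are also known NF-kB targets. Whether ZFP36 had a part in these values was not tested.

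**Figure D5:**
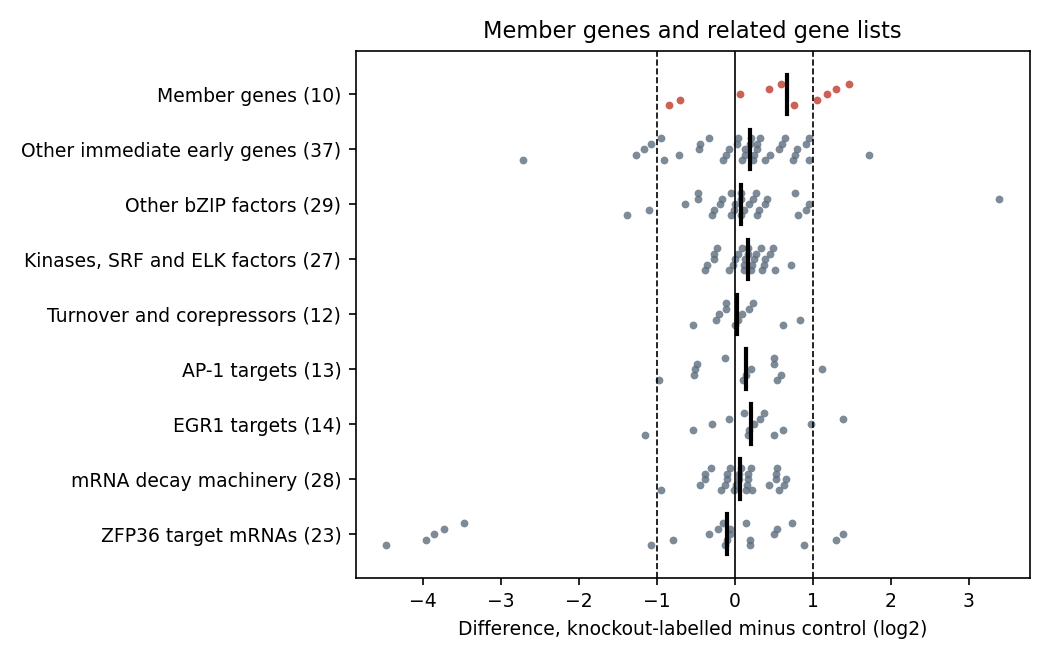
Difference between the arrays (horizontal axis, log2) of each compared gene of the member set (red) and of 8 related lists (grey), with the number of compared genes in brackets, black bars at the medians and dashed lines at 2-fold. The member median of 0.67 lies above the medians of the other lists, which run from -0.11 to 0.21, and the chemokines lie at the far left of the ZFP36 targets.

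Immediate early genes also respond to handling and heat, so heat shock genes were set beside them. Of 8 compared of 11 listed, 7 were below 0, 1 at least 2-fold lower and none higher, with a median of -0.09. HSPA1A, HSPA1B and HSPA8 were listed but had no single-symbol probe set, so they were not read and the median leaves them out. DNAJA1 (-1.16) and HSPH1 (-0.83) were lowest, while HSPB1 (0.46) was the 1 above 0. The part of handling or of the time since feeding in the values of the member genes was not tested. Of 12 colon epithelial markers 9 reached the floor on each array, and none was 2-fold different. The largest differences were in the intestinal transcription factor CDX2 (0.64) and the epithelial cadherin CDH1 (-0.45). KRT20, a differentiation marker named after its value was seen, was under the floor on both. Fibroblast markers at or above the floor were 2 of 7 on the knockout-labelled and 1 of 7 on the control array. Leukocyte markers at or above it were 3 of 7 measured, and endothelial markers 2 of 5, on each array. None of the compared genes of these 3 lists was 2-fold different. Over all compared genes 1.05% were at least 2-fold higher and 3.79% lower. In lists as short as the heat shock and marker lists, counts of 0 or 1 cannot be told apart from those shares.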

How the data were processed

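Total RNA of 2 HCT15 cultures was measured on 1 array each. The authors deposited log2 values. Per the submitters' processing notes these come from RMA, without a version. The set of arrays normalised together is not stated. Quantile normalisation removes differences in total RNA, and 1 array a group limits the precision.

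Genes were named from the platform annotation, using the 41091 probe sets with 1 gene symbol. All 10 member symbols were found in the RefSeq table (GRCh38.p14). The brightest probe set stood for a gene, and the floor was the pooled median of non-control values. Calls used 2-fold, with 1.5-fold and 3-fold as alternatives. The other alternatives were the mean of probe sets, leaving out probe sets with the suffix _s_at, _x_at or _a_at, a loess trend (span 0.3), centring, scaling on 51 ribosomal protein genes or on the poly-A spike-ins, 64 linear units added, no floor, and a floor at the 75th percentile. Listed genes without a single-symbol probe set were not analysed here. The members and lists were chosen with earlier results of these data known. Named genes were all members and up to 4 per list with the largest difference, and genes named after their values were seen are marked so. Python 3.11.15, pandas 2.3.3 and statsmodels 0.14.6 were used. The procedure was also run on simulated arrays, with differences past 2-fold planted in genes well above the floor and noise below the spread seen here. That run therefore does not bear on dim genes or on differences near 2-fold.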

Additional observations from a re-analysis of the deposited data

How the results depend on the processing

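No paired analysis was possible because each group had 1 array and the labels carry no replicate numbers, and no array could be left out. Scaling on the poly-A spike-ins moved all differences up, so that 8 of 10 member genes were at least 2-fold higher, as were 71.2% of all compared genes. The member median was then 1.86, against 1.22 for all compared genes, and JUN and JUND turned above 0. Apart from that scaling, 9 of the 10 member genes kept their direction under every alternative that gave them a value. The exception was IER3, at -0.03 when scaled on ribosomal protein genes. Most of these alternatives could hardly change a sign, so the kept directions are no measure of stability. Adding units to both arrays keeps every sign, and centring and ribosomal scaling moved all genes by a small amount (0.10 for the latter). For genes with 1 probe set the mean of probe sets is the same value. With 64 linear units added 2 member genes (EGR1 and ZFP36) were at least 2-fold higher, as were 0.358% of all compared genes. FOSB then differed by 0.16 and FOSL2 by 0.28. Scaled on ribosomal protein genes, or with the floor at the 75th percentile, 3 member genes were at least 2-fold higher, without FOS. FOS differed by 0.96 in the first and was under the floor in the second. The shares of all compared genes at least 2-fold higher were 0.841% in the first and 1.33% in the second. Without probe sets that may match several transcripts 3 member genes were again 2-fold higher, without EGR1, against 1.2% of compared genes. At a 3-fold threshold 0 member genes were higher, against 0.195% of compared genes. As the mean of probe sets 1 member gene (JUN) was 2-fold lower, against 2.87% of compared genes. At a 1.5-fold threshold 2 member genes were lower, against 10.5% of compared genes. Without probe sets that may match several transcripts, JUND, EGR1 and IER3 had no value. The alternatives run on list medians were the mean of probe sets, leaving out probe sets that may match several transcripts, no floor, and the 75th percentile floor. The loess trend, centring, scalings and added units were not run on them. Of 48 list medians under these alternatives, 47 moved by less than 0.354, the scaled MAD of all compared genes. The other, of the fibroblast markers as the mean of probe sets, was -0.70 and rested on 1 gene. The median of the AP-1 targets was -0.0004 without probe sets that may match several transcripts. FOSB and the dimmer JUN probe sets are limited by signal near the floor.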

Other observations

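The genes next to the members on their chromosomes were looked at after the data were seen. For each member the nearest compared gene on either side, in the order of the RefSeq table, gave 20 neighbours. None of them was at least 2-fold higher or lower, against 1.05% and 3.79% of all compared genes, and they ran from -0.44 to 0.69 with a median of 0.20. A count of 0 among 20 genes cannot be told apart from these shares. Above 0 were 16 of the 20 neighbours, against 52.9% of all compared genes. FOS lies between TMED10, a cargo receptor of the secretory route (0.04), and JDP2, a bZIP repressor of AP-1 (0.19). ZFP36 lies between MED29, a Mediator subunit (-0.28), and PLEKHG2 (0.27), and EGR1 between REEP2 (0.14) and the translation release factor ETF1 (-0.29). JUN lies between MYSM1 (0.03) and LOC101926907, which at -0.44 (4.20 and 4.64) was the lowest of the neighbours and dim on both arrays. JUND lies between IQCN (0.24) and LSM4 (0.18). The largest neighbour values were beside FOSL1 (C11orf68, 0.69) and FOSB (RTN2, 0.63). FOSB, JUNB, JUND and ZFP36, 4 of the 10 members, lie on chromosome 19, where the median of 890 compared genes was 0.10, and they include both directions.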
